A study of Mus musculus with 30 samples.

Results

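The 10 endothelial genes Pecam1, Cdh5, Kdr, Tek, Tie1, Vwf, Aplnr, Prox1, Car4 and Ednrb were followed through RNA-seq counts of whole mouse lung and trachea. They were taken by gene symbol from the 53715 genes of the count tables, and all 10 were found. In GRCm38, the adhesion genes Pecam1 and Cdh5 lie at chr11:106654217-106750628 and chr8:104101625-104144511, and the receptor genes Kdr, Tek and Tie1 at chr5:75932827-75978458, chr4:94739289-94874976 and chr4:118471191-118490061. The other five lie at chr6:125546774-125686679 (Vwf), chr2:85136225-85139923 (Aplnr), chr1:190118035-190170714 (Prox1), chr11:84957786-84966044 (Car4) and chr14:103814625-103844402 (Ednrb), each span being that of the whole gene in the count tables. The study deleted Myocd, which codes for myocardin, a coactivator that drives smooth muscle genes, to ask what airway smooth muscle does for the size of airways, the cartilage of the trachea and the branching of the epithelium. Each library came from 1 embryo's trachea or lung: 6 mutant and 4 control tracheas at E18.5, 6 mutant and 4 control lungs at E18.5, of which the right lobes were taken, and 5 mutant and 5 control lungs at E13.5, of which both sides were taken. Mutants were Tbx4rtTAi/+; tetOcrei/+; MyocdF/F, with a reverse tetracycline transactivator under Tbx4 control, a Cre that it switches on, and 2 floxed Myocd alleles. Controls were Tbx4rtTAi/+; tetOcrei/+; MyocdF/+, so that they carry both transgenes and 1 floxed allele, apart from E13.5 control replicate 1, which was MyocdF/F with neither transgene. Cre therefore acts where that control is active, and the endothelial cells were not sorted: whether they recombined Myocd was not measured, and the labels do not say when Cre was induced. The labels also do not say which embryos were littermates. In such bulk tissue, fewer endothelial cells and less RNA per endothelial cell cannot be told apart.

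Endothelial cells line blood and lymph vessels. Pecam1 and Cdh5 (VE-cadherin) hold neighbouring cells together, Kdr is the main receptor for the growth factor VEGF-A, and Tek and Tie1 form the receptor pair of the angiopoietins. Vwf, the von Willebrand clotting factor, is known mainly from larger vessels, and Prox1 is the transcription factor that sets lymphatic identity. In mouse lung, the capillaries of the gas-exchange surface hold general capillary cells, known by the apelin receptor Aplnr, and aerocytes, known by the carbonic anhydrase Car4 and the endothelin receptor Ednrb.

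Many endothelial genes are known targets of ETS-family factors, which bind a GGAA core, so upstream sequence is shown for 2 receptor genes that were higher in E18.5 lung and for Car4, which was near 0 outside the E18.5 lung. RefSeq promoters (GRCm38.p6) were at hand for 6 of the 10 genes: Kdr, Tek, Tie1, Prox1, Car4 and Ednrb. Each line runs 5′ to 3′ on the gene's strand, and capitals mark GGAA or its reverse complement TTCC. In Tek the capitals extend over the longer word TTCCTG, which holds the core. Kdr is shown from chr5:75978459-75978705 on the minus strand, Tek from chr4:94739039-94739288 on the plus strand and Car4 from chr11:84957504-84957753 on the plus strand.
Kdr: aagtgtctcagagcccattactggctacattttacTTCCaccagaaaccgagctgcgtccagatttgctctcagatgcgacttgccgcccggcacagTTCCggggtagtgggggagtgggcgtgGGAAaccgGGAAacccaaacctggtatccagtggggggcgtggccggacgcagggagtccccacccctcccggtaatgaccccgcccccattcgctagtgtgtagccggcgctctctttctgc
Tek: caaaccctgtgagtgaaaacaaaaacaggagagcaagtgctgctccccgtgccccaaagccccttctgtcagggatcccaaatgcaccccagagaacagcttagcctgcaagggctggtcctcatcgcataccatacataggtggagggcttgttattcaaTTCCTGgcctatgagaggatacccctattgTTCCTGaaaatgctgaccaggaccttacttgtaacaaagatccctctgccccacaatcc
Car4: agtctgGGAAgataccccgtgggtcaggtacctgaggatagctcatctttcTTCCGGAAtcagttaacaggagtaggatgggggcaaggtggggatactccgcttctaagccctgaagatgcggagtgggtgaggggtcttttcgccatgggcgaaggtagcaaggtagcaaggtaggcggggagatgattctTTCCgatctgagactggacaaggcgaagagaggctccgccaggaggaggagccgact
The 250 bases before each start held GGAA or TTCC 4 times in Kdr, 2 times in Tek, 7 times in Tie1, 4 times in Car4 and 2 times in Ednrb, and 5 and 2 times in the pair of Prox1 promoters. That core stood in 93.4% of all 32851 mouse promoter windows of this length, with a median of 3. The longer word CAGGAA (reverse complement TTCCTG), which contains the core, stood in 25.7% of them. It was found 2 times in Tek and 1 time in Tie1, and not in these windows of the other genes.

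A trachea library held between 11.7 and 30.5 M counts, an E18.5 lung library between 19.9 and 32.8 M, and an E13.5 lung library between 17.4 and 28.5 M. Levels are counts per M (CPM) on library sizes scaled by TMM over all 30 libraries. Myocd was counted over its whole length, so its reads do not check the deletion: it lay between 2.74 and 8.66 CPM in mutant and 0.895 and 8.07 CPM in control tracheas, between 5.57 and 10.1 CPM in mutant and 6.06 and 11.8 CPM in control lungs at E18.5, and between 6.64 and 13.1 CPM in mutant and 10.1 and 18.9 CPM in control lungs at E13.5. Cartilage markers summed to at least 2413 CPM in each trachea and to at most 26.6 CPM in each E18.5 lung, and lung epithelial markers to at least 11934 CPM in each E18.5 lung and at most 997 CPM in each trachea. Thyroid markers were also found in the trachea libraries, where they summed to between 16.97 and 527 CPM in mutants and between 5.16 and 630 CPM in controls. Ribosomal RNA made up 0.983 to 15.7% of the counts in mutant tracheas and 1.03 to 3.32% in control tracheas. Mutant replicate 4 was highest, and mutant replicates 2 and 3 had 7.56% and 7.67%. The share was at most 0.169% in mutant and 0.120% in control E18.5 lungs. Its part in the trachea values and in the differences between tissues was not tested.

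In each of the 30 libraries the endothelial genes were read well above 0, apart from Car4 outside the E18.5 lung. Per length (RPKM, mean of the E18.5 control lungs), Cdh5 stood highest at 231, before Pecam1 at 115, Tie1 at 83.2, Kdr at 62.2, Aplnr at 51.4, and Tek and Ednrb both at 32.4. Car4 followed at 19.2 RPKM, Vwf at 8.23 RPKM and Prox1, of lymphatic cells, at 0.918 RPKM. The summed RPKM of Pecam1, Cdh5, Kdr, Tek and Tie1, which are shared by most endothelial cells, serves below as the measure of endothelial RNA as a whole. It was 71.0 ± 6.14 in mutant tracheas (SD, n = 6) and 75.3 ± 5.34 in control tracheas (n = 4), 506 ± 24.4 in mutant (n = 6) and 524 ± 20.996 in control E18.5 lungs (n = 4), and 139 ± 22.4 in mutant and 146 ± 15.6 in control E13.5 lungs (n = 5 each).

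**Figure D1:**
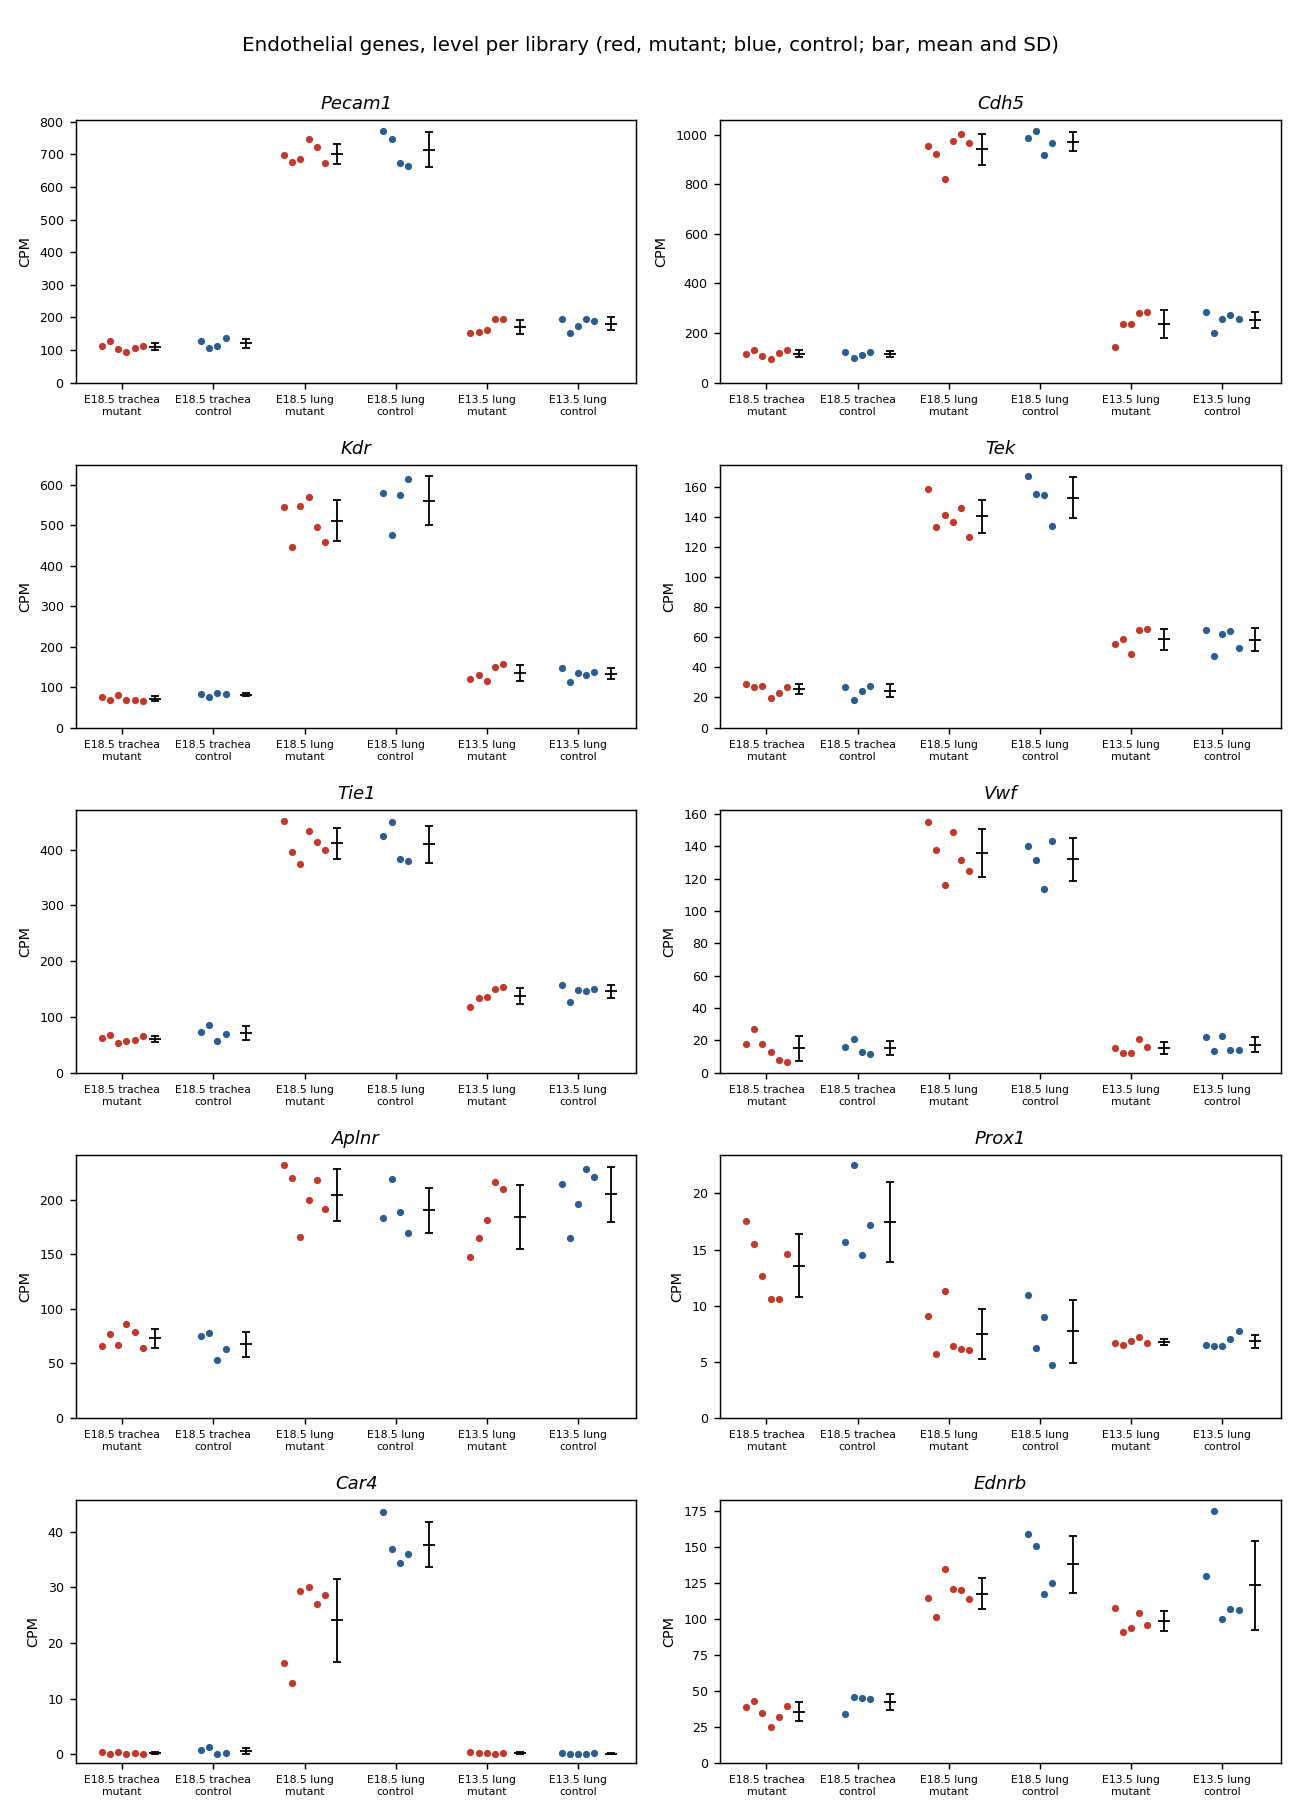
Level of each endothelial gene in every library, in CPM (y axis, from 0 for all genes but Car4, whose axis starts just below 0), by tissue, stage and genotype; points are libraries, and the bar is the mean with its SD. Most genes are highest in E18.5 lung, Prox1 is highest in trachea, and Car4 is near 0 outside E18.5 lung, where the mutants lie below the controls.

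Mutants were first compared with controls, which asks whether loss of Myocd in the Tbx4 domain was accompanied by a change of the endothelium. None of the endothelial genes tested passed edgeR's quasi-likelihood test with Benjamini-Hochberg adjustment over all genes at 0.05: 0 of 9 in the E18.5 tracheas, 0 of 10 in the E18.5 lungs and 0 of 9 in the E13.5 lungs. Car4 was below the filter on low counts in trachea and in E13.5 lung. Over all genes, 0.071% of genes passed in trachea, 0.584% at E18.5 in lung and 0.206% at E13.5. At an unadjusted p under 0.05 there were 0, 2 and 1 endothelial genes in the same order, beside 6.75%, 9.41% and 3.57% of all genes, and DESeq2 called 0 in each.

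The adhesion molecules and receptors shared by most endothelial cells lay close together in both genotypes. Pecam1 had 673, 693 and 748 CPM in mutant E18.5 lungs (lowest, median and highest of 6 libraries), against 772, 748, 673 and 664 CPM in the 4 control lungs. Kdr had 448, 521 and 571 CPM in mutant lungs, against 580, 475, 576 and 614 CPM in control lungs. Mutant and control ranges of both genes overlapped. Cdh5 had 821, 960 and 1003 CPM in mutant lungs, against 988, 1013, 919 and 967 CPM in control lungs. Tek, the angiopoietin receptor, had 126, 139 and 158 CPM in mutant lungs, against 167, 155, 154 and 134 CPM in control lungs. Tie1, its partner, had 375, 406 and 451 CPM in mutant lungs, against 424, 449, 384 and 380 CPM in control lungs. The ranges of these 3 genes overlapped as well. On the log2 scale the mutant minus control differences of Pecam1, Cdh5, Kdr, Tek and Tie1 ran from -0.13 (Kdr) to 0.02 (Tie1) in E18.5 lung, with intervals of 1.96 SE reaching from -0.29 to 0.15. In trachea they ran from -0.19 (Tie1) to 0.10 (Tek), with intervals from -0.44 to 0.39. In E13.5 lung they ran from -0.09 (Cdh5) to 0.04 (Kdr), with intervals from -0.40 to 0.23.

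Car4, the aerocyte carbonic anhydrase, had the largest difference of the 10 genes. The mutant E18.5 lungs held 16.5, 12.9, 29.4, 30.01, 27.1 and 28.6 CPM of Car4, with a median of 27.8 CPM, against 43.5, 36.9, 34.3 and 36.0 CPM in the control lungs. Every mutant library lay below every control library, with 2 mutants (replicates 1 and 2) lower than the other 4. Ranges that do not overlap were found for this 1 of the 10 genes, beside 2.39% of all genes. In trachea 0 of the 10 had such ranges, beside 2.34% of all genes, and in E13.5 lung 0 of the 10, beside 1.01%. The log2 fold change was -0.63 ± 0.21 (SE), with an adjusted p of 0.344 in edgeR and 0.262 in DESeq2, so it did not pass. Relative to the summed RPKM of the shared endothelial genes, Car4 was 2.42% ± 0.760 in mutant lungs (n = 6) and 3.65% ± 0.276 in control lungs (n = 4). The ranges were 1.35 to 3.17% in mutants and 3.48 to 4.06% in controls. The sum itself was close in the genotypes (mean 506 in mutants and 524 in controls), so this ratio largely repeats the CPM values.

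Ednrb, the endothelin receptor of aerocytes, was lower on average in mutants of all 3 tables without passing in any. In E18.5 lung it had 102, 117 and 135 CPM in mutants (lowest, median, highest), against 159, 151, 117 and 125 CPM in controls, a log2 fold change of -0.22 ± 0.09 (SE; edgeR adjusted p = 0.437). In E13.5 lung the mutants had 108, 90.9, 93.7, 104 and 96.0 CPM, against 130, 175, 100, 107 and 106 CPM in the controls, a log2 fold change of -0.31 ± 0.14 (edgeR adjusted p = 0.998). That value leaned on control replicate 2, at 175 CPM, and was -0.15 without it. In trachea the mutants had 25.0, 36.7 and 43.1 CPM (lowest, median, highest), against 34.1, 46.0, 44.7 and 44.4 CPM in controls, a log2 fold change of -0.22 ± 0.15 (edgeR adjusted p = 0.782), which was -0.09 without the 2 tracheas of lowest total count. In each table the ranges of the genotypes overlapped.

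Some measures outside the endothelium also stood apart or leaned to one side between the genotypes in E18.5 lung. The share of counts from ribosomal RNA was 0.123 to 0.169% in mutants and 0.0924 to 0.120% in controls, and the ranges did not overlap. With that share in the fit as a covariate, a setting added once the values were known, the log2 fold change was -0.83 for Car4 and -0.09 for Ednrb. Since the share stood apart between the genotypes, this fit separates it poorly from genotype. Leukocyte markers (Ptprc, Csf1r, Adgre1, Lyz2 and Cd68) summed to 473 to 748 CPM in mutants and 708 to 963 CPM in controls, and 0 of the 5 passed in edgeR. Erythroid markers summed to 1549 to 2268 CPM in mutants and 1935 to 2469 CPM in controls, and 0 of the 4 passed. The genotypes overlapped in both sums. Pericyte markers gave closely similar sums, 733 to 875 CPM in mutants and 718 to 872 CPM in controls. The part of these measures in the Car4 and Ednrb values was not tested. In trachea the cartilage sum had a median of 4398 CPM in mutants and 10973 CPM in controls. The medians were 370 and 255 CPM for leukocyte, 381 and 210 CPM for erythroid and 529 and 602 CPM for pericyte markers, in the same order. The genotypes overlapped in each of these trachea sums, and their part in the trachea values was not tested.

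Of the remaining genes, Aplnr had 166, 209 and 232 CPM in mutant E18.5 lungs (lowest, median, highest), against 183, 219, 189 and 169 CPM in controls. Its log2 fold change was 0.11 ± 0.09 (SE; edgeR adjusted p = 0.747). Vwf had 116, 135 and 155 CPM in mutant lungs, against 140, 131, 114 and 143 CPM in controls, a log2 fold change of 0.05 ± 0.08. In trachea, Prox1 had 10.6, 13.6 and 17.5 CPM in mutants, against 15.7, 22.5, 14.5 and 17.2 CPM in controls, a log2 fold change of -0.33 ± 0.19 (edgeR adjusted p = 0.755). The genotypes overlapped for all 3 genes.

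The genes around the 10 gave 1 further call. Of 83 listed endothelial genes (pan-endothelial, capillary, arterial, venous and lymphatic genes, ligands and receptors of the VEGF, angiopoietin, apelin and endothelin pathways, and endothelial transcription factors), edgeR called 0 of 79 tested in the tracheas, 1 of 78 in the E18.5 lungs and 0 of 78 in the E13.5 lungs. The counts at an unadjusted p under 0.05 were 2, 10 and 4, against the shares of 6.75%, 9.41% and 3.57% of all genes given above, and DESeq2 called 0, 2 and 0. The called gene, Tmcc2, was listed as a partner of Car4 and Ednrb in aerocytes: it averaged 55.3 ± 4.08 CPM in mutant E18.5 lungs (SD, n = 6) and 75.0 ± 5.49 CPM in control lungs (n = 4), a log2 fold change of -0.43 ± 0.07 (SE; edgeR adjusted p = 0.00969). All 6 mutants, at 51.8 to 62.9 CPM, lay below all 4 controls, at 68.0 to 80.9 CPM. The call was lost without control replicate 4 (-0.40, edgeR adjusted p = 0.0522) and with the ribosomal RNA share as a covariate (-0.49, adjusted p = 0.279). That share did not overlap between the genotypes, so the covariate fit separates it poorly from genotype and cannot say whether the call depends on it. None of the other 6 tested genes of that list passed, and the median log2 fold change of the 7 was -0.08, beside 0.00495 over all genes.

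Edn1, the gene of endothelin-1 and so of a ligand of Ednrb, was picked out after its values were seen. It averaged 14.3 ± 3.48 CPM in mutant E18.5 lungs (n = 6; range 9.69 to 17.97) and 24.2 ± 4.82 CPM in control lungs (n = 4; range 18.7 to 30.2), a log2 fold change of -0.75 ± 0.17 (SE). It passed in DESeq2 (adjusted p = 0.00435) and in edgeR with no filter on low counts (0.0429), but not in edgeR as otherwise run (0.0734). With any 1 library left out it did not pass in edgeR (adjusted p 0.0512 to 0.333). Nor did it pass with the ribosomal RNA share as a covariate (-0.64, edgeR adjusted p = 0.787), a fit that separates that share poorly from genotype. Edn1 averaged 3.89 CPM in mutant and 4.38 CPM in control tracheas, and 5.01 CPM in mutant and 5.53 CPM in control E13.5 lungs, with log2 fold changes of -0.13 ± 0.40 in trachea and -0.13 ± 0.15 in E13.5 lung (SE).

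**Figure D2:**
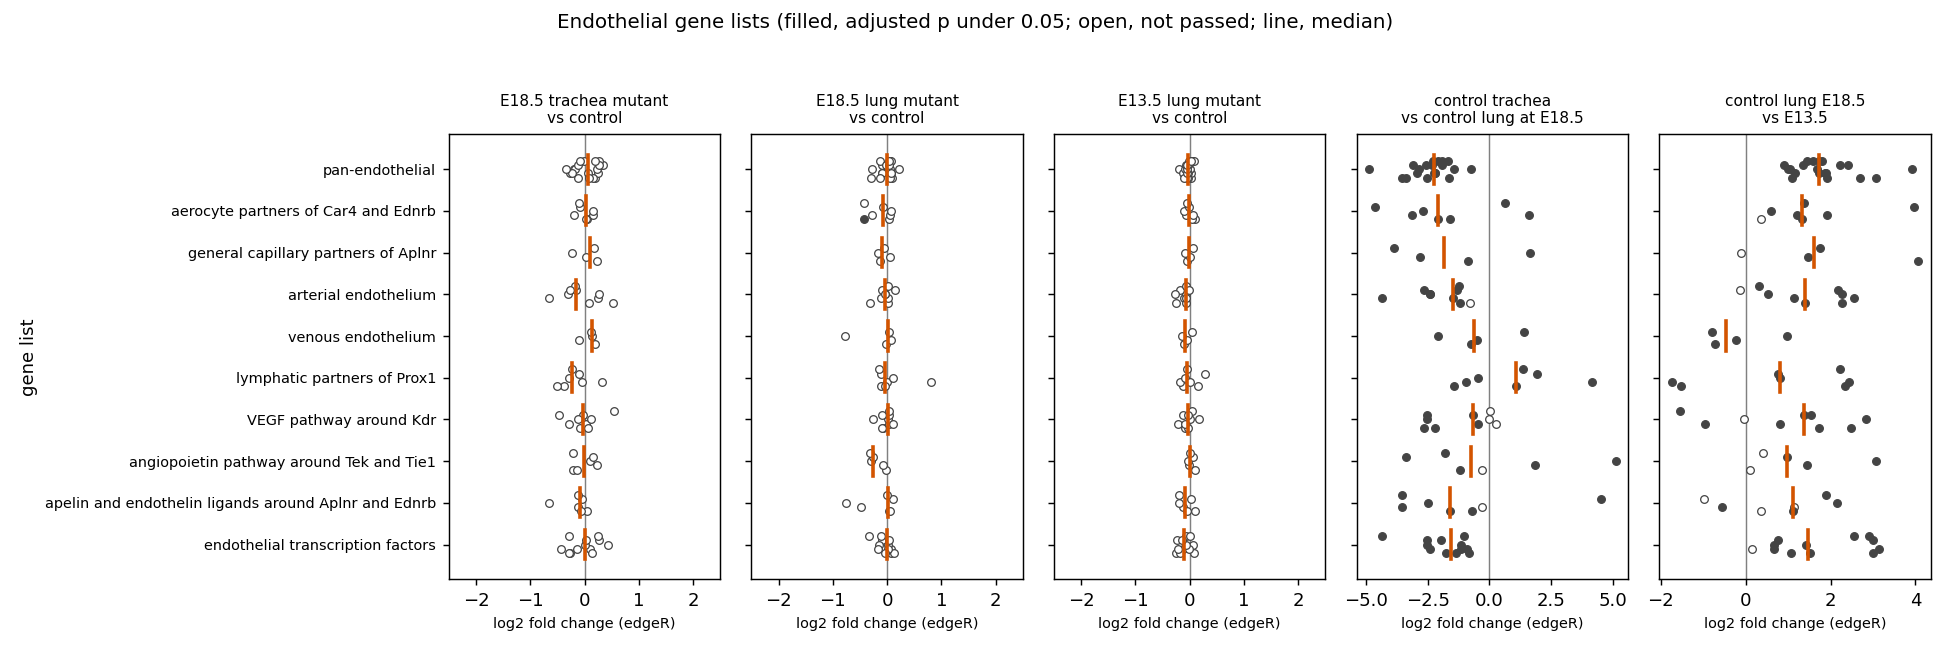
Log2 fold change (x axis; each panel has its own comparison, and the first 3 share a scale) of every tested gene of the endothelial lists (y axis); filled points passed edgeR at an adjusted p under 0.05, and the orange line is the list's median. The mutant against control panels hold 1 filled point, Tmcc2 in E18.5 lung; most lists lie below 0 for control trachea against control lung and on the positive side for control E18.5 against E13.5 lung.

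The mutant effect was then compared between stages and between tissues. Car4 had 3 to 8 reads per mutant and 1 to 7 per control library at E13.5 and at most 19 in a trachea, too few for such a comparison, so the values below are those of the other 9 genes. For the difference E18.5 lung minus E13.5 lung, 0 of the 9 passed in edgeR (0 at an unadjusted p under 0.05, 0 in DESeq2), beside 0.0268% of all genes and 5.85% at the unadjusted p. The values ran from -0.17 ± 0.14 for Kdr (SE) to 0.25 ± 0.15 for Aplnr. For E18.5 trachea minus E18.5 lung, 0 of the 9 passed (0 at an unadjusted p under 0.05, 0 in DESeq2), beside 0.0252% of all genes and 6.92% at the unadjusted p. Those values ran from -0.24 ± 0.33 for Prox1 to 0.25 ± 0.15 for Tek.

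The endothelial genes differed between the stages of the lung. In mutants, 8 of the 10 were higher in E18.5 than in E13.5 lung and 0 were lower, where 37.2% of all genes were higher and 38.4% lower. In controls 7 were higher and 0 lower, where 37.4% of all genes were higher and 37.3% lower. In each genotype 7 of the 10 had ranges that did not overlap, beside 58% of all genes in mutants and 70.8% in controls. Car4 is in these counts, but it passed the filter on low counts through the E18.5 lungs, where it is high; of the other 9 genes, 7 were higher in mutants and 6 in controls, and 6 in each genotype had ranges that did not overlap. Stage, the lobes taken and the count table coincide, so that they cannot be told apart. Markers of other cell types differed between the stages too. Lung epithelial markers summed to 11934 to 15205 CPM in mutants and 13031 to 15144 CPM in controls at E18.5, beside 222 to 315 CPM in mutants and 244 to 327 CPM in controls at E13.5, and 5 of 5 were higher at E18.5 in both genotypes. Leukocyte markers summed to 473 to 748 CPM in mutants and 708 to 963 CPM in controls at E18.5, beside 52.1 to 67.5 CPM in mutants and 56.0 to 66.0 CPM in controls at E13.5, and 4 of 5 were higher in both. Erythroid markers summed to 1549 to 2268 CPM in mutants and 1935 to 2469 CPM in controls at E18.5, beside 226 to 903 CPM in mutants and 229.5 to 582 CPM in controls at E13.5, with 3 of 4 higher in mutants and 4 of 4 in controls. Cartilage markers summed to less at E18.5, 20.2 to 26.6 CPM in mutants and 17.4 to 26.5 CPM in controls, beside 164 to 198 CPM in mutants and 156 to 189 CPM in controls at E13.5; Col2a1 and Sox9 were lower in both genotypes, Acan and Comp were higher in mutants, and Matn1, not tested, was at 0 in every E13.5 mutant and in some libraries of the other groups. The part of these cells in the endothelial values was not tested.

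Cdh5, at the cell junctions, had 988, 1013, 919 and 967 CPM in E18.5 controls, against 285, 199, 256, 271 and 258 CPM in E13.5 controls. Kdr averaged 561 ± 60.1 CPM in E18.5 controls (n = 4) and 133 ± 13.2 CPM in E13.5 controls (n = 5). In mutants the log2 fold changes were 1.93 ± 0.10 for Kdr, 2.04 ± 0.08 for Pecam1, 2.01 ± 0.12 for Cdh5, 1.58 ± 0.08 for Tie1 and 1.26 ± 0.09 for Tek. In controls they were 2.10 ± 0.10 for Kdr, 2.003 ± 0.09 for Pecam1, 1.96 ± 0.13 for Cdh5, 1.51 ± 0.08 for Tie1 and 1.41 ± 0.10 for Tek (SE; edgeR adjusted p at most 2.31e-12). Both angiopoietin receptors had smaller fold changes than the VEGF receptor, 2.66-fold for Tek and 2.85-fold for Tie1 beside 4.28-fold for Kdr in controls.

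The genes of particular vessels differed more among themselves. Vwf, of larger vessels, was 7.74-fold higher at E18.5 in controls, with 140, 131, 114 and 143 CPM against 22.3, 13.6, 22.6, 13.9 and 14.2 CPM at E13.5. Its log2 fold change was 3.16 ± 0.15 in mutants and 2.95 ± 0.16 in controls. Platelet markers, which belong to other cells that carry Vwf and Pecam1, summed to 26.2 to 41.4 CPM in mutant and 27.1 to 36.6 CPM in control lungs at E18.5, and to 14.1 to 23.8 CPM in mutant and 14.98 to 20.01 CPM in control lungs at E13.5, and 5 of 6 were higher at E18.5 in mutants and 4 of 6 in controls. The part of platelets in the Vwf level was not tested.

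The aerocyte genes Car4 and Ednrb gave different values. Car4 had 906 to 1283 reads in each E18.5 control lung and 1 to 7 in each E13.5 control lung. It averaged 24.1 ± 7.42 CPM in E18.5 mutants and 0.257 ± 0.131 CPM in E13.5 mutants, and 37.7 ± 4.03 CPM in E18.5 controls and 0.134 ± 0.0858 CPM in E13.5 controls. Car4 passed in both genotypes, but a fold change against so few reads at E13.5 has no firm size, and none is given. Ednrb averaged 118 ± 10.8 CPM in E18.5 mutants and 98.5 ± 7.15 CPM in E13.5 mutants, and passed narrowly, 0.27 ± 0.12 (edgeR adjusted p = 0.0403), although the stages overlapped. That edgeR call was lost with no filter on low counts (adjusted p = 0.0782) and when any of E18.5 mutants 3, 4 and 5 or E13.5 mutants 2, 3 and 5 was left out (adjusted p 0.0564 to 0.0913). In controls Ednrb averaged 138 ± 20.1 CPM at E18.5 and 124 ± 31.0 CPM at E13.5 and did not pass (0.18 ± 0.13, edgeR adjusted p = 0.200), but passed without E13.5 control 2 (0.34, adjusted p = 0.00486).

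Aplnr and Prox1 did not pass between the stages in either genotype. Aplnr averaged 205 ± 23.9 CPM in E18.5 mutants and 184 ± 29.1 CPM in E13.5 mutants, a log2 fold change of 0.16 ± 0.10 that passed without E18.5 mutant 3 (0.25, edgeR adjusted p = 0.0282). In controls it averaged 190.2 ± 20.9 CPM at E18.5 and 205 ± 25.1 CPM at E13.5, a log2 fold change of -0.09 with an interval of -0.31 to 0.13. Prox1 averaged 7.70 ± 2.82 CPM in E18.5 controls and 6.81 ± 0.578 CPM in E13.5 controls, a log2 fold change of 0.20 with an interval of -0.21 to 0.61. Set against the summed RPKM of the 5 shared endothelial genes, Aplnr was 10.9% ± 1.07 in mutants and 9.82% ± 0.967 in controls at E18.5, beside 35.8% ± 1.81 in mutants and 37.9% ± 2.11 in controls at E13.5. Prox1 was 0.176% ± 0.0592 in mutants and 0.175% ± 0.0618 in controls at E18.5, beside 0.591% ± 0.0957 in mutants and 0.560% ± 0.0675 in controls at E13.5. For both genes, and in both genotypes, the stages did not overlap in this ratio. The sum itself averaged 506 RPKM in mutants and 524 RPKM in controls at E18.5, beside 139 and 146 RPKM at E13.5. Since neither gene passed between the stages, the ratio largely repeats the change of the sum, and any gene with a level value would give the like.

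The listed partners were mostly higher at E18.5 as well. All 20 listed pan-endothelial genes outside the 10 were higher at E18.5 in both genotypes, with a median log2 fold change of 1.69 in mutants and 1.73 in controls, beside -0.02 in mutants and -0.01 in controls over all genes. Calcrl, the receptor of adrenomedullin, had 435 CPM in E18.5 controls and 29.0 CPM in E13.5 controls, a log2 fold change of 3.93 ± 0.11. Of 7 tested aerocyte partners 6 were higher in each genotype, with Prx (3.96 ± 0.10 in controls) and Kitl (1.91 ± 0.09) in front, and of 4 general capillary partners of Aplnr 3 were higher, among them Gpihbp1, which binds lipoprotein lipase to the capillary wall (4.06 ± 0.19). Of the 9 VEGF pathway genes 6 were higher and 2 lower in each genotype, and the ligand Vegfa had 945 CPM in E18.5 and 170.2 CPM in E13.5 mutants, and 1003 CPM in E18.5 and 183 CPM in E13.5 controls. Of 4 tested venous genes, 2 were lower and 0 higher in mutants, and 3 were lower and 1 higher in controls, beside the 38.4% of all genes that were lower in mutants and 37.3% in controls. Among the lower genes was Nr2f2, the transcription factor of vein identity (-0.64 ± 0.07 in mutants and -0.73 ± 0.08 in controls). The higher gene in controls was Slc6a2, a noradrenaline transporter (0.97 ± 0.32, edgeR adjusted p = 0.00826). It averaged under 5 CPM at both stages, and its call was not followed through the alternative fits. The third lower gene in controls, Ephb4, lost its edgeR call without E18.5 control 1 (adjusted p = 0.0587) or 3 (0.0717). Among 12 tested endothelial transcription factors, 12 were higher in mutants and 11 in controls, with Epas1 (3.14 ± 0.11 in controls) in front.

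**Figure D3:**
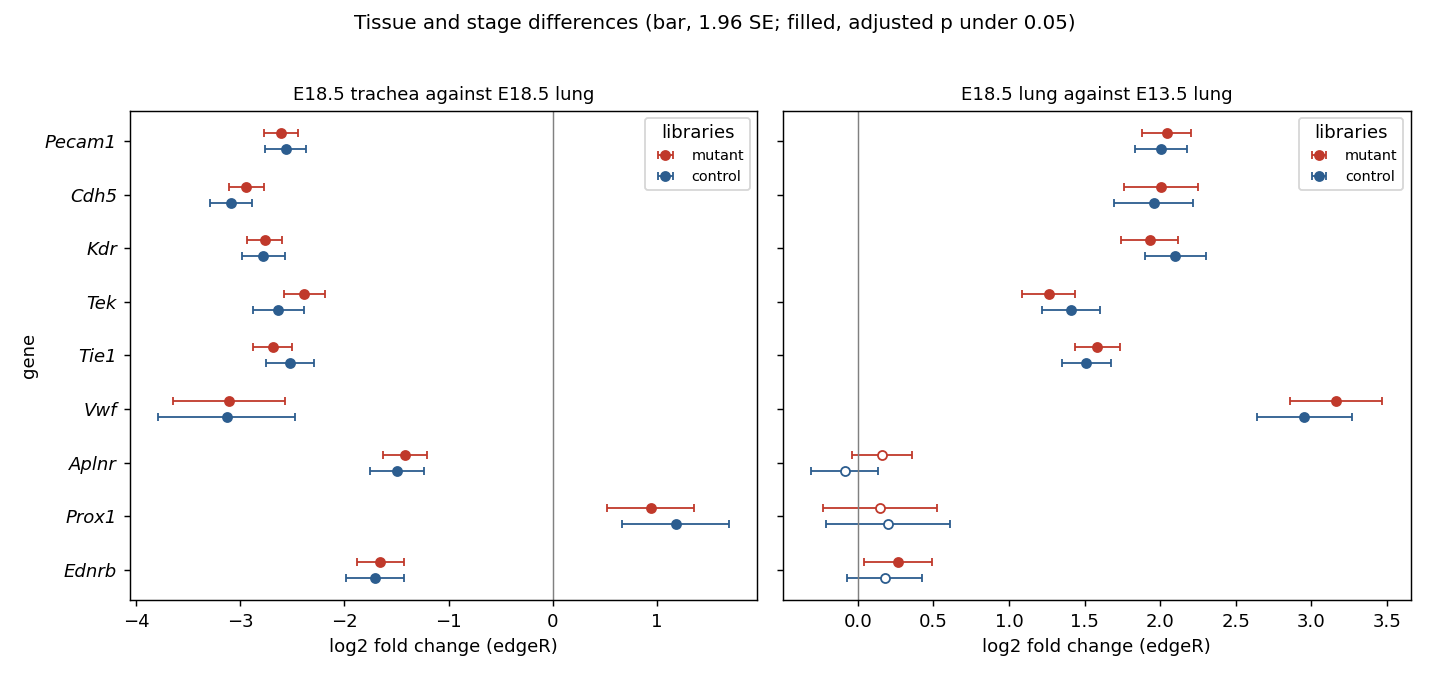
Log2 fold change (x axis) of 9 of the endothelial genes (y axis; Car4 is left out for its few reads outside the E18.5 lung) for E18.5 trachea against E18.5 lung and for E18.5 against E13.5 lung, in mutants (red) and controls (blue); bars are 1.96 SE, and filled points passed edgeR at an adjusted p under 0.05. For the tissues, Prox1 is the 1 gene on the positive side, and for the stages Vwf lies furthest from 0 in both genotypes.

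Trachea and lung were compared at E18.5 to see how far the endothelial genes differ between the organs. In each genotype 9 of the 10 were lower in trachea and 1, Prox1, was higher. Of all genes, 26.5% were lower and 31.7% higher in mutants, and 24.6% lower and 24.5% higher in controls. The ranges of trachea and lung did not overlap for 9 of the 10 genes in mutants and 10 of the 10 in controls, beside 39.6% and 47.5% of all genes. Without Car4, which passed the filter on low counts through the lungs, 8 of the other 9 were lower in each genotype, and the ranges did not overlap for 8 of the 9 in mutants and 9 of the 9 in controls. Pecam1 had 95.2, 110 and 127 CPM in mutant tracheas (lowest, median, highest), against 673, 693 and 748 CPM in mutant lungs. Kdr had 82.0, 75.2, 86.6 and 83.2 CPM in control tracheas, against 580, 475, 576 and 614 CPM in control lungs. The log2 fold changes of the 5 shared genes lay between -2.94 ± 0.08 (Cdh5) and -2.39 ± 0.10 (Tek) in mutants and between -3.09 ± 0.10 (Cdh5) and -2.52 ± 0.12 (Tie1) in controls (SE). Cdh5 was thus 8.503-fold and Tie1 5.75-fold lower in control tracheas. Each of those 5 genes was also lower in every trachea than in every E13.5 lung. That difference was not tested, and the share of all genes with such ranges was not counted. Tissue, stage and count table coincide in it and cannot be told apart.

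Aplnr and Ednrb were lower in trachea with smaller fold changes than the shared genes, and Vwf had a fold change close to that of Cdh5. Aplnr had 53.1 to 77.9 CPM in control tracheas and 169 to 219 CPM in control lungs, and Ednrb 34.1 to 46.0 CPM in control tracheas and 117 to 159 CPM in control lungs. The log2 fold changes in controls were -1.498 ± 0.13 for Aplnr, -1.71 ± 0.14 for Ednrb and -3.13 ± 0.34 for Vwf. Relative to the shared endothelial sum, Aplnr was 28.1% ± 5.40 in mutant and 24.2% ± 4.31 in control tracheas, beside 10.9% ± 1.07 in mutant and 9.82% ± 0.967 in control lungs. Ednrb was 11.6% ± 1.28 in mutant and 13.3% ± 2.36 in control tracheas, beside 5.47% ± 0.627 in mutant and 6.16% ± 0.652 in control lungs. Car4 had 0 to 10 reads per mutant trachea and 0 to 19 per control trachea, against 266 to 889 reads per mutant lung and 906 to 1283 per control lung. Markers of neural crest, glia and melanocytes, other cells known to use Ednrb, summed to 29.2 to 91.0 CPM in mutant and 36.8 to 51.5 CPM in control tracheas, beside 3.04 to 10.8 CPM in mutant and 6.35 to 8.18 CPM in control lungs. Of those 5 markers 4 were tested and all 4 were higher in trachea in both genotypes, beside 31.7% of all genes in mutants and 24.5% in controls. The melanocyte gene Dct was at 0 in some libraries of every group, and Sox10 and Foxd3 were at 0 in some mutant lungs. Their part in the Ednrb level was not tested.

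Prox1 was the exception. In mutants it had 10.6, 13.6 and 17.5 CPM in trachea (lowest, median, highest), against 5.67, 6.29 and 11.3 CPM in lung, and the tissues overlapped. It had 15.7, 22.5, 14.5 and 17.2 CPM in control tracheas, against 10.98, 6.18, 8.96 and 4.68 CPM in control lungs, and these did not overlap. The log2 fold changes were 0.94 ± 0.21 in mutants and 1.18 ± 0.26 in controls (edgeR adjusted p = 0.000521 and 0.000513). Relative to the shared endothelial sum, Prox1 was 2.27% ± 0.347 in mutant and 2.78% ± 0.678 in control tracheas, against 0.176% ± 0.0592 in mutant and 0.175% ± 0.0618 in control lungs. About 1.59% of the bases counted for Prox1 also belong to the antisense gene Prox1os, and the library kit does not mark strand. Prox1 is also known from muscle and neuroendocrine cells. Skeletal muscle markers summed to 11.8 to 2506 CPM in mutant and 18.8 to 1937 CPM in control tracheas, beside 7.30 to 19.2 CPM in mutant and 8.12 to 32.5 CPM in control lungs. Of these markers 5 of 5 were higher in trachea in both genotypes, beside 31.7% of all genes in mutants and 24.5% in controls. Myod1 is in that count, but it had no read in any E18.5 lung and none in some control tracheas. It could thus pass the filter on low counts only through the tracheas, which fixed its direction. Neuroendocrine markers summed to 2.49 to 11.8 CPM in mutant and 6.59 to 10.8 CPM in control tracheas, beside 2.94 to 5.201 CPM in mutant and 4.48 to 8.21 CPM in control lungs. Cardiac muscle markers summed to 45.8 to 494 CPM in mutant and 102 to 1057 CPM in control tracheas. In lungs the cardiac sums were 185 to 426 CPM in mutants and 228 to 439 CPM in controls. The median cardiac sum was lower in trachea, 156 CPM in mutants and 139 CPM in controls, than in lung, 281 CPM in mutants and 292 CPM in controls. The library with most Prox1 also had the highest cardiac sum in control tracheas (replicate 2), mutant tracheas (replicate 1) and control lungs (replicate 1). In mutant lungs, replicate 3 had most Prox1 but only 224 CPM of cardiac markers. At E13.5 the library with most Prox1 was not the one with the highest cardiac sum, in mutants (replicates 4 and 5) or in controls (replicates 5 and 2). The part of these cells in the Prox1 level was not tested.

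The listed partners of Prox1 split. Of 7 lymphatic genes 4 were higher in trachea (Ccl21a, Reln, Mmrn1 and Foxc2) and 3 lower (Lyve1, Pdpn and Flt4) in both genotypes. Foxc2, a transcription factor of lymphatic valves, averaged 15.3 ± 2.85 CPM in mutant tracheas and 1.22 ± 0.370 CPM in mutant lungs, and 12.6 ± 4.87 CPM in control tracheas and 0.703 ± 0.353 CPM in control lungs. Ccl21a, a chemokine of lymphatic vessels, averaged 54.2 CPM in mutant tracheas and 14.4 CPM in mutant lungs, but near-identical copies make its count uncertain. Lyve1, the hyaluronan receptor, was lower, at 80.2 CPM in mutant tracheas and 266 CPM in mutant lungs, a log2 fold change of -1.66 ± 0.17.

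Elsewhere the partners mostly followed the shared endothelial genes. All 20 pan-endothelial genes and all 12 tested endothelial transcription factors were lower in trachea in both genotypes, with Sox17, a factor of arteries, at 7.42 CPM in mutant tracheas and 123 CPM in mutant lungs. Of the 7 tested aerocyte partners 5 were lower and 2 (Fibin and Chst1) higher, and of the general capillary partners 3 were lower and Sema3c, a guidance cue, was higher (1.64 ± 0.12 in mutants and 1.65 ± 0.15 in controls). Among the ligands, Vegfa was lower in trachea (-2.62 ± 0.09 in mutants and -2.67 ± 0.11 in controls), as were Apln, Edn1 and Edn3. Angpt2, the ligand that can block Tek, was higher, at 64.2 ± 20.6 CPM in mutant tracheas and 14.5 ± 2.06 CPM in mutant lungs. Angpt4 averaged 8.26 CPM in mutant tracheas and 0.422 CPM in mutant lungs, and 7.87 CPM in control tracheas and 0.221 CPM in control lungs, and it passed the filter on low counts through the tracheas. Most of these ligands are also made by cells other than endothelium, which whole-organ counts do not separate.

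**Figure D4:**
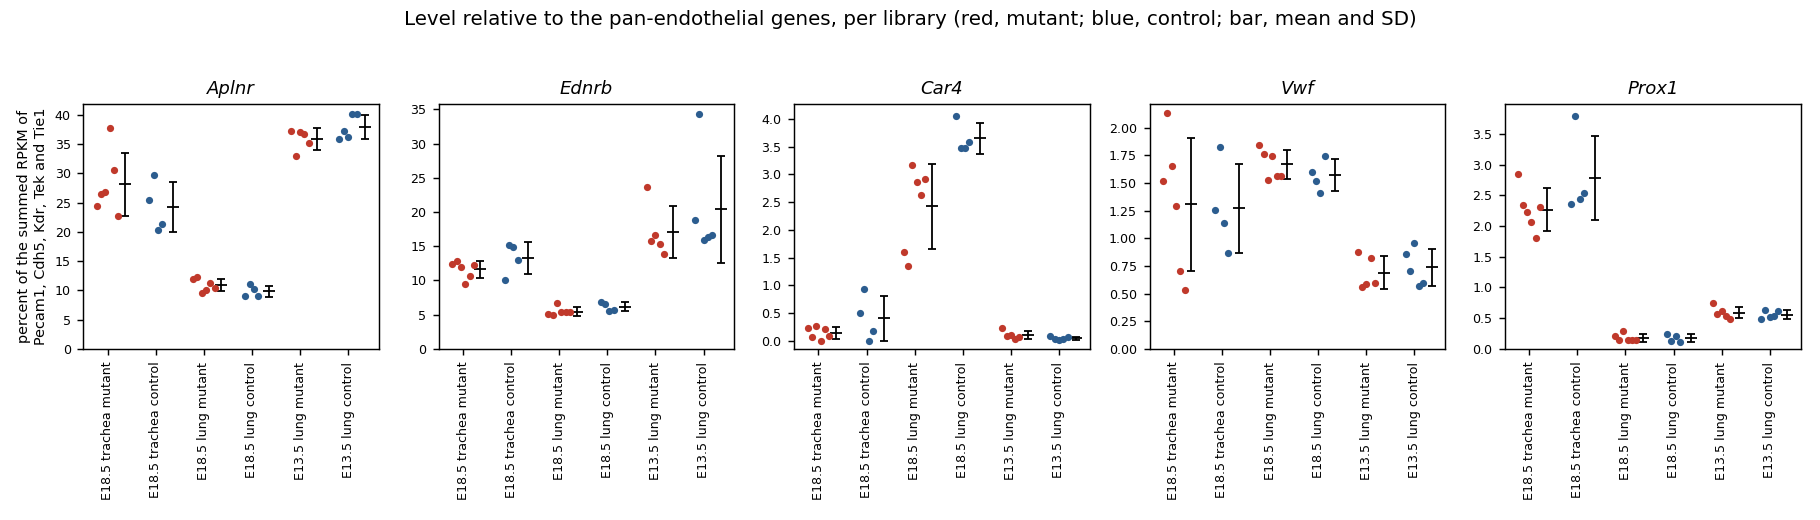
Aplnr, Ednrb, Car4, Vwf and Prox1 as a percent of the summed RPKM of Pecam1, Cdh5, Kdr, Tek and Tie1 (y axis) in every library by tissue, stage and genotype; points are libraries, and the bar is the mean with its SD. Aplnr and Ednrb take a larger share in trachea and in E13.5 lung than in E18.5 lung, Prox1 takes its largest share in trachea, and Car4 is lower in mutant than in control E18.5 lungs.

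Within a table, the 5 shared genes varied together to different degrees. Over the 10 libraries of a table, after taking each library's deviation from its group mean in log2 CPM, the median of their 10 pairwise Pearson correlations was 0.25 for the tracheas, 0.32 for the E18.5 lungs and 0.81 for the E13.5 lungs. Some pairs ran opposite ways: the lowest value was -0.70 in trachea (Kdr with Tie1) and -0.29 in E18.5 lung (Cdh5 with Kdr), while in E13.5 lung it was 0.59. The sum of the 5 genes therefore adds members that did not vary as one in the E18.5 tables. Car4 and Ednrb had r = 0.63 in E18.5 lung (n = 10), below the 0.73 of Ednrb with Pecam1 in the same libraries. In E13.5 lung and trachea, where Car4 was near 0, Car4 and Ednrb had r = 0.04 and 0.02. In E13.5 lung Ednrb ran opposite to each of the 5 shared genes, with r from -0.51 (Tie1) to -0.35 (Kdr). Control replicate 2 had the most Ednrb (175 CPM) and the lowest shared sum (120 RPKM) of the E13.5 controls. Mutant replicate 1 stood likewise among the E13.5 mutants (108 CPM and 107 RPKM). How far these r rest on such single libraries was not computed. Which cells held Ednrb there was not tested. All these correlations are descriptions, since libraries of a table share their scaling and total counts. Among 10703 genes, those whose deviations were most like the mean of the 5 shared genes over the 3 tables were Carmil1 (mean r = 0.89), Map4 (0.84) and Fn1 (0.82). The genes most like Aplnr were Cbfa2t3 (0.72), Mocs1 (0.72) and Hspb6 (0.70), those most like Prox1 were Iws1 (0.76), Rsrc1 (0.70) and Prkag2 (0.70), and those most like Ednrb were Pcsk5 (0.70), Grk5 (0.70) and Sgce (0.67). For Vwf they were Kif1a (0.67), Tbcd (0.65) and Ptprj (0.64). For Car4 no such gene is named, because its counts were near 0 in 2 of the 3 tables.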

How the data were processed

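Poly(A) RNA of each lung or trachea was made into libraries with the TruSeq V2 kit, which does not mark strand, and sequenced as single reads, per the labels' protocols. The authors deposited 3 tables of raw counts per gene (E13.5 lung, E18.5 lung and E18.5 trachea, 10 libraries each), counted with featureCounts 1.6.2 on GENCODE gene models, per the file headers, after alignment with STAR to GRCm38, per the submitters' processing notes. All columns were used, and 53620 of 53715 gene identifiers were matched to a symbol.

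Each table was tested with edgeR 4.0.16 in R 4.3.3 (filterByExpr, TMM, quasi-likelihood F test, Benjamini-Hochberg adjustment over all genes, threshold 0.05). Mutant effects were fitted on the 10 libraries of a table, and stage and tissue contrasts and differences of mutant effects on both tables concerned (20 libraries). SE is the log2 fold change divided by the square root of F, and intervals are 1.96 SE. CPM are from 1 TMM scaling over all 30 libraries, and RPKM divide them by the deposited gene length. The 10 genes and all gene lists were chosen with earlier results of these data known. Named beside the 10 are, per list and comparison, up to 3 called genes with the largest fold change among those at 5 CPM or more, and the 3 genes whose deviations from the group means were most like each profile. Other list genes are named where they make up a count of 5 or fewer, after their values were seen.

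DESeq2 1.42.0, RLE size factors, no filter on low counts, a replicate block, fits of 2 groups only and leaving out each library were tried as alternatives. No 2 libraries of a group agreed within counting noise (lowest chi-square per degree of freedom 4.11). Same-numbered lung and trachea libraries at E18.5 deviated together from their group means in each of 6 mutant pairs (r 0.14 to 0.32) and 4 control pairs (r 0.17 to 0.33). The numbers were therefore taken to pair them, from the data and not from a label, but only in the replicate block. The tissue contrasts and the differences of mutant effects given above were fitted without this pairing, as if all libraries were independent. Nothing in the labels says which embryos shared a litter. The scripts were tested on simulated data.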

Additional observations from a re-analysis of the deposited data

Results flagged for a closer look

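Among 60 groups of libraries (10 genes in 6 groups), 1 value stood far from the rest of its group. In E18.5 trachea, control replicate 1 had 34.1 CPM of Ednrb, the lowest of 4 control libraries, while the other 3 lay between 44.4 and 46.0 CPM. Chance alone puts about 1 in 20 such groups past this limit. No difference between tissues or stages in the mutant effect passed a test for any of the 10 genes.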

How the results depend on the processing

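For the 10 endothelial genes, 0 passed in every alternative of the 3 mutant comparisons and both differences of mutant effects, 7 or 8 were higher at E18.5 in each genotype, and all 10 passed between tissues. Numbers of genes past the threshold over the whole table moved more. In E13.5 lung it was 34, 82 with DESeq2, 0 with the replicate block, and 17 to 56 without 1 library. In E18.5 lung it was 102, 264 with DESeq2, 192 with no filter on low counts, 4 with the ribosomal RNA share as a covariate, and 26 to 205 without 1 library. In trachea it was 13, 89 with DESeq2, 22 with no filter, 28 with the replicate block, 45 without the 2 shallow tracheas (mutant 4 and control 2), and 3 to 16 without 1 library. For the mutant effect between stages it was 5, 41 with DESeq2, 0 with the block and 3 to 19 without 1 library, and between tissues 5, 64 with DESeq2, 12 without the shallow tracheas and 2 to 9 without 1 library. Of the listed genes, 1 passed in E18.5 lung, 2 with DESeq2 and with no filter (Tmcc2 and Edn1), 0 with the covariate, and 0 to 2 without 1 library; in trachea 0 passed, and 1 (Nrp2) without the shallow tracheas. The covariate and the fit without shallow tracheas were added after seeing the data, and the covariate is poorly separable from genotype in E18.5 lung. The cause of these changes was not tested. Some differences changed sign. Prox1 in E18.5 lung, -0.04, was 0.11 with the replicate block and 0.42 with the covariate. The mutant effect on Car4 between tissues, -0.53 ± 0.71 (SE) on at most 19 reads per trachea, was 0.13 without the shallow tracheas. Without 1 library, log2 fold changes in E13.5 lung ran from -0.17 to 0.046 for Cdh5, -0.021 to 0.092 for Kdr, -0.035 to 0.089 for Tek and -0.012 to 0.050 for Prox1. In E18.5 lung they ran from -0.055 to 0.019 for Pecam1, -0.023 to 0.061 for Tie1, -0.021 to 0.091 for Vwf, -0.22 to 0.18 for Prox1 and -0.71 to -0.51 for Car4. In trachea they ran from -0.0070 to 0.15 for Tek and -0.24 to 0.21 for Vwf, and for Car4 between tissues from -0.97 to 0.018. Mutants and controls of the same number were not shown to be pairs (lowest r -0.34 for E13.5 lungs, -0.00364 for E18.5 lungs and -0.33 for tracheas), nor were the stages (-0.21 in mutants and 0.01 in controls), and the block changed no other call of a named gene. Some of these pairs did deviate together. In E18.5 lungs 3 of 4 had r over 0.1 (highest 0.45), and in tracheas 2 of 4 (highest 0.46). Between the stages the highest r was 0.17 in mutants and 0.28 in controls. Car4 had at most 19 reads in any trachea or E13.5 lung, too few to compare genotypes there.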
